A study of Mus musculus with 12 samples.

Results

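The genes described here are 9 complement genes, C1qa, C1qb, C1qc, C1rb, C4a, C4b, C3, C6 and Serping1, out of 15774 genes in the deposited count table. They were chosen as components and a regulator of the complement system, with earlier results of these data known. All 9 were found in the table and passed the filter on low counts. Complement is a cascade of plasma and tissue proteins that tags surfaces for removal. In the classical pathway C1q binds a target, its partner protease C1r activates C1s, and C1s cleaves C4 and C2. Fragments of C4 and C2 together form an enzyme that cleaves C3. Deposited C3 fragments are read by receptors on phagocytes, and further cleavage starts the terminal pathway, in which C6 joins the pore-forming membrane attack complex. In the brain complement is known for the tagging of synapses, where C1q is made largely by microglia and where reactive glia can make C3 and C4.

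Total RNA was sequenced from cells sorted as astrocytes, taken from the cerebral cortex of mice of the WT C57BL/6J genotype. For stroke, the distal middle cerebral artery was tied permanently and the common carotid arteries of both sides were shut for 7 min. The 12 libraries form 6 groups of 2, sham mice with a lesion of the skull surface alone and mice on days 1, 3, 7, 21 and 60 after stroke. The sort marker, the pooling of animals, the age of the mice and the time at which sham tissue was taken are not given in the sources used here. Whether replicates are separate animals is not stated, so each p-value measures only the spread between these samples, which may be technical. All groups carry the same genotype, and the occlusion is the labelled difference between sham and the other groups.

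Replicate 1 libraries held 13006008 to 16575045 counts and replicate 2 libraries 97056596 to 156128922, so the low values of replicate 1 carry more counting error. Levels are CPM, counts scaled to a common library size, with library totals scaled by TMM factors, given for replicate 1 and then replicate 2, and n = 2 in each group. All 10 astrocyte markers examined were detected in every library and took 0.661 to 0.832% of counts in sham, 0.0961 to 0.180% on day 7 and 0.252 to 0.334% on day 60. Markers of other cells were present too. In sham the 10 oligodendrocyte markers took 0.929 to 1.08% of counts and the 10 neuron markers 0.841 to 0.986%, both above the astrocyte list. On day 7 these 2 lists took 0.0820 to 0.151% and 0.0141 to 0.0267%. The 11 microglia markers took 0.0607 to 0.0752% of counts in sham and 0.261 to 0.425% on day 7, and the 10 fibroblast markers went from 0.00852 to 0.00857% in sham to 8.09 to 19.8% on day 7. In such bulk samples fewer cells of a type and less RNA per cell cannot be told apart. The 9 complement genes together took 0.0269 and 0.0408% of counts in the sham libraries, 1.47 and 6.59% on day 21 and 1.15 and 7.63% on day 60. In replicate 2 most of the late share was C4a and C4b, whose counts are uncertain as described below. They held 5738023 of 122366362 counts on day 21 and 9077920 of 152838848 on day 60.

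The 9 genes followed 2 time courses. C1qa, C1qb and C1qc stayed near their sham level on day 1, were highest on days 3 and 7 and were lower again on days 21 and 60. C4b and Serping1 were higher in each replicate at each later time up to day 21 and stayed high on day 60. C6 lay higher in both replicates at each time from day 3 on. C3 did so on days 7 and 21 and stayed high on day 60, while from sham to day 1 and from day 1 to day 3 its replicates went in opposite directions. C4a and C1rb had this late course in replicate 2 and almost no counts in replicate 1. The plot of each gene by library shows all 12 values.

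**Figure D1:**
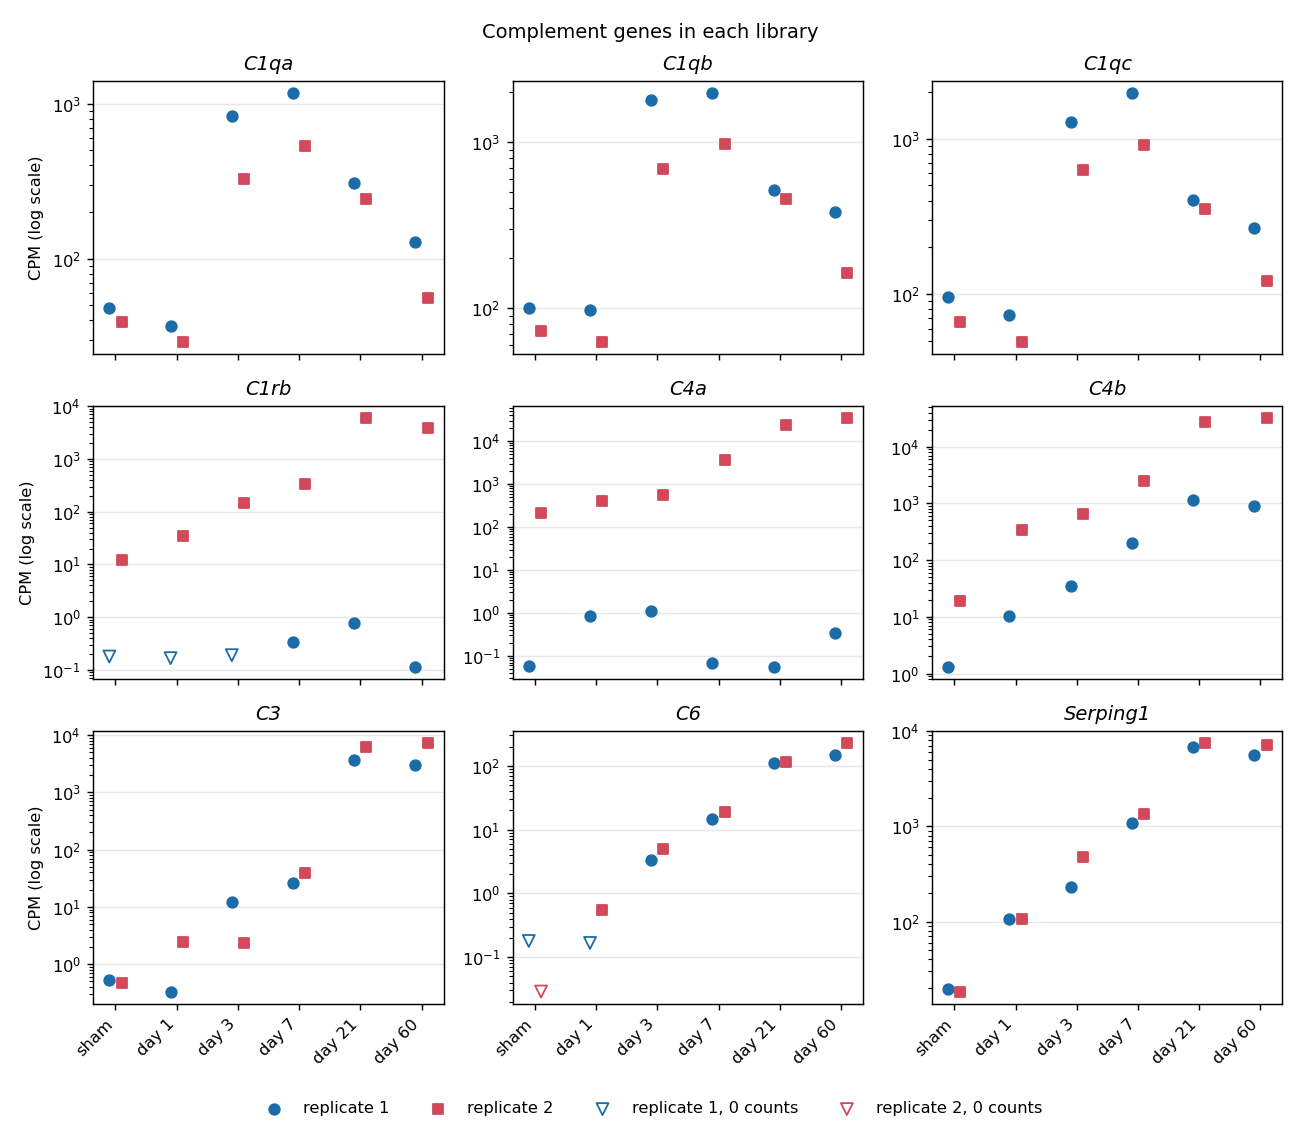
Levels of the 9 complement genes in CPM on log axes, for replicate 1 (circles) and replicate 2 (squares) of each group, with open triangles drawn at the level of 3 counts where a library had 0 counts. The C1q genes peak on day 7, while C3, C4b, C6 and Serping1 are highest on days 21 and 60, and C4a and C1rb are separated by replicate in every group.

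A gene was called higher or lower at a Benjamini-Hochberg adjusted p under 0.05 from the edgeR quasi-likelihood test fitted to all 15635 genes that passed the filter. On day 1 against sham 2 of the 9 genes (C6 and Serping1) rose and none fell, where 30.5% of all genes were called and 16.7% were called higher. On day 3 this was 6 of 9, all higher, against 32.2% of all genes called and 18% higher. On day 7 it was again 6 of 9, all higher, against 43% called and 23.2% higher. On day 21, 7 of 9 rose, against 33.2% called and 17.8% higher, and on day 60, 4 of 9 rose, against 31.5% called and 16.8% higher. With the replicate number as a block 3, 8, 8, 9 and 9 of the 9 genes were called at the 5 times, where 43.2, 43.9, 54.1, 46.2 and 43.7% of all genes were. The median log2 fold change of the 9 genes was 1.51, 3.83, 4.78, 8.57 and 8.30 at the 5 times (1.40 on day 1 with C6 at its bound), and that of all genes tested was 0.06, 0.16, 0.13, 0.07 and 0.01. On days 1, 7 and 60 this median is the value of C1rb, which did not pass and of which replicate 1 held at most 14 counts. Without C4a and C1rb, an alternative added after the data were seen, the median of the other 7 was 1.56, 3.87, 6.02, 8.57 and 8.40. The median of the 9 fell to -0.28 on day 1 without day 1 replicate 2, to 2.80 on day 21 without day 21 replicate 2 and to 2.13 on day 60 without day 60 replicate 2, and rose to 13.16 and 13.21 on days 21 and 60 without sham replicate 2. For the 7 genes the same omissions of replicate 2 after stroke gave -0.11, 6.85 and 6.45. These 5 comparisons share the same 2 sham libraries. Because the 9 genes were chosen with earlier results of these data known, their shares and medians beside those of all genes are a description. Tested over all 6 groups together, 7 of the 9 genes differed, where 42.7% of all genes did, and C4a and C1rb did not pass. C4b passed this test narrowly (edgeR adjusted p = 0.04997).

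**Figure D2:**
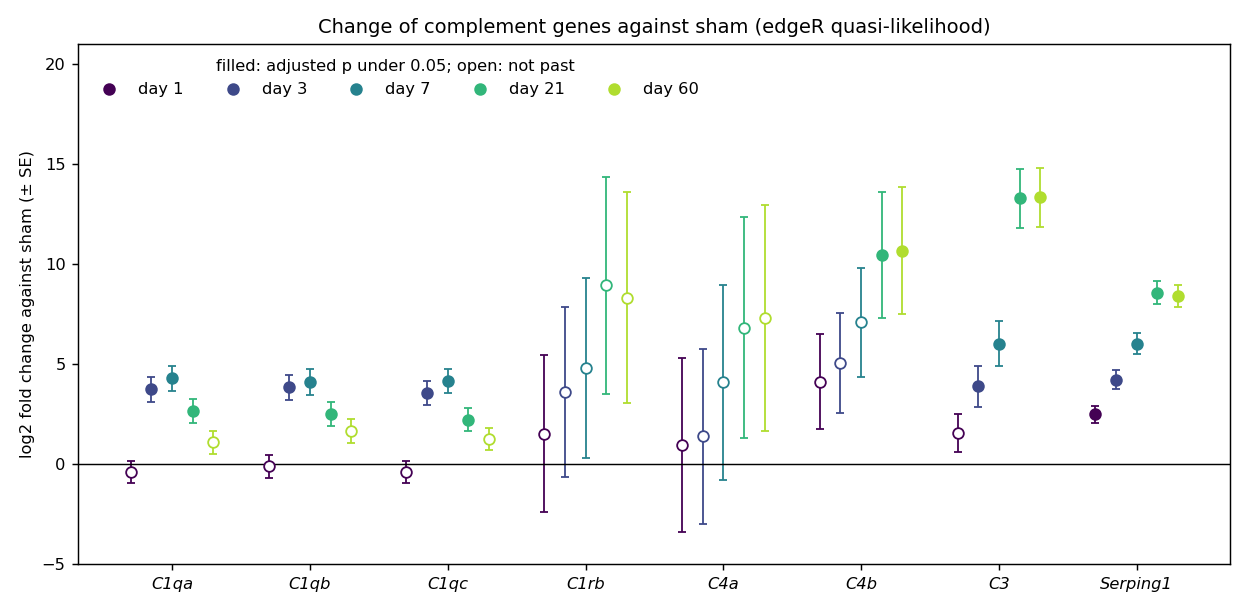
Log2 fold change against sham from the edgeR quasi-likelihood fit for 8 of the 9 genes at each time, with bars of 1 standard error, filled points for an adjusted p under 0.05 and open points for genes not past it. C6 is left out because it has 0 counts in both sham libraries. The standard errors of C4a and C1rb reach 5.66 and 5.41, while those of Serping1 reach 0.57.

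C1qa, C1qb and C1qc encode the 3 chains of C1q, the recognition molecule that starts the classical pathway. The genes lie side by side on the minus strand of chromosome 4 in GRCm38, C1qb at chr4:136880129-136886187, C1qc at chr4:136889804-136893065 and C1qa at chr4:136895917-136898803, with 3 exons each in their longest transcripts. Of the 250 bases upstream of the C1qb start (RefSeq, GRCm38.p6, chr4:136886201-136886450, minus strand), shown because the 3 genes moved together, the capitals mark 1 match to the PU.1 core GAGGAA, 30 to 25 bases before the start.
C1qb upstream: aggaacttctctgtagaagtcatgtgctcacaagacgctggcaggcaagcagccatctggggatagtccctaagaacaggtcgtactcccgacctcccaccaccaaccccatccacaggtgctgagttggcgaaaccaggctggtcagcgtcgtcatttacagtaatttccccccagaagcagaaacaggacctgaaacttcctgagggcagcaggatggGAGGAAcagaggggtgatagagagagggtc
The search covered both strands for the NF-kB consensus, the STAT motif TTCNNNGAA, the ISRE consensus, the C/EBP motif TTGCNNAA and GAGGAA, and only the last was found in this window. The window upstream of C1qc, not shown, held 1 NF-kB match, 41 to 32 bases before the start, and 1 match to GAGGAA, 193 to 188 bases before it. Windows of the same length upstream of all 32544 RefSeq starts held GAGGAA in 23.4% and the NF-kB consensus in 7.28%, so the matches are a description of the sequence.

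C1qa stood at 48.3 and 39.3 CPM in sham, 37.0 and 29.0 on day 1, 832 and 328 on day 3, 1164 and 535 on day 7, 306 and 242 on day 21 and 128 and 56.1 on day 60. Every library from day 3 on lay above both sham libraries, days 3 and 7 overlapped, and replicate 1 was above replicate 2 in all 6 groups. C1qa rose by a log2 fold change of 3.73 ± 0.62 (SE) on day 3 (edgeR adjusted p = 0.00204), 4.28 ± 0.63 on day 7 (edgeR adjusted p = 0.000580) and 2.64 ± 0.59 on day 21 (edgeR adjusted p = 0.00752).

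C1qb had 100.3 and 73.3 CPM in sham, 97.3 and 62.7 on day 1, 1785 and 686 on day 3, 1964 and 980 on day 7, 517 and 452 on day 21 and 379 and 163 on day 60. Sham and day 1 overlapped, and so did days 3 and 7. C1qb rose by 3.83 ± 0.64 on day 3 (edgeR adjusted p = 0.00212), 4.08 ± 0.65 on day 7 (edgeR adjusted p = 0.000833) and 2.48 ± 0.60 on day 21 (edgeR adjusted p = 0.0113).

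C1qc was at 96.3 and 66.5 CPM in sham, 73.8 and 49.3 on day 1, 1289 and 630 on day 3, 1952 and 912 on day 7, 403 and 354 on day 21 and 266 and 122 on day 60. Its order of groups was that of C1qb, with the same overlaps between sham and day 1 and between days 3 and 7. C1qc rose by 3.56 ± 0.59 on day 3 (edgeR adjusted p = 0.00204), 4.14 ± 0.61 on day 7 (edgeR adjusted p = 0.000551) and 2.22 ± 0.56 on day 21 (edgeR adjusted p = 0.0131).

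At day 1 the fitted differences of the C1q genes from sham were -0.41 ± 0.56, -0.12 ± 0.57 and -0.40 ± 0.54 for C1qa, C1qb and C1qc and did not pass (edgeR adjusted p = 0.611, 0.902 and 0.599), and that of C1qb turned to 0.12 with libraries scaled by their totals alone. On day 60 they were 1.07 ± 0.56, 1.64 ± 0.59 and 1.25 ± 0.54 and did not pass either (edgeR adjusted p = 0.171, 0.0561 and 0.104). With the replicate number as a block all 3 passed on day 60 (edgeR adjusted p = 0.0405, 0.00446 and 0.0101). The calls on days 3 and 7 held in each of the 18 alternatives, and those on day 21 did not. Leaving out sham replicate 2 ended the call of C1qa (edgeR adjusted p = 0.0556). Leaving out sham replicate 1, sham replicate 2 or day 21 replicate 1 each ended those of C1qb (0.0528, 0.0771 and 0.0552) and C1qc (0.0516, 0.0881 and 0.0661, all edgeR adjusted p). The step from day 1 to day 3 passed for C1qa (4.13 ± 0.63, edgeR adjusted p = 0.00649), C1qb (3.95 ± 0.64, edgeR adjusted p = 0.00930) and C1qc (3.96 ± 0.60, edgeR adjusted p = 0.00649). Without day 1 replicate 1 or day 1 replicate 2 it no longer passed for C1qa (edgeR adjusted p = 0.0505 and 0.0515) and C1qb (0.0520 and 0.0604).

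The 3 chains kept nearly fixed proportions. C1qa made up 16.5 to 24.9% of the summed C1q CPM over the 12 libraries, C1qb 38.7 to 49.0% and C1qc 32.9 to 39.3%. The microglia markers, like the C1q genes, were highest on days 3 and 7, taking 0.324 to 0.342% and 0.261 to 0.425% of counts. They took 0.0607 to 0.0752% in sham and 0.148 to 0.154% on day 21. Below both sham libraries they stood at 0.0337 to 0.0359% on day 1 and 0.04999 to 0.0567% on day 60. On day 60 each C1q gene lay above both sham libraries. Of the 11 markers, none was at 0 in any library. On days 3, 7, 21 and 60, 5, 7, 2 and 1 were called higher, where 18, 23.2, 17.8 and 16.8% of all genes were. The count of day 21 was near that share. On days 1 and 60, 3 and 5 were called lower, where 13.9 and 14.8% of all genes were. The ratio of summed C1q to summed microglia marker CPM was 0.407 and 0.219 in sham, 0.721 and 0.436 on day 1, 1.39 and 0.542 on day 3, 1.09 and 0.641 on day 7, 0.940 and 0.623 on day 21 and 1.70 and 0.542 on day 60. Each later library therefore had more C1q per unit of these markers than both sham libraries, and replicate 1 was above replicate 2 in every group. The macrophage and monocyte list also moved, from 0.00305 to 0.0254% of counts in sham to 0.129 to 0.252% on day 3. The part of these cells in the C1q result was not tested.

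**Figure D3:**
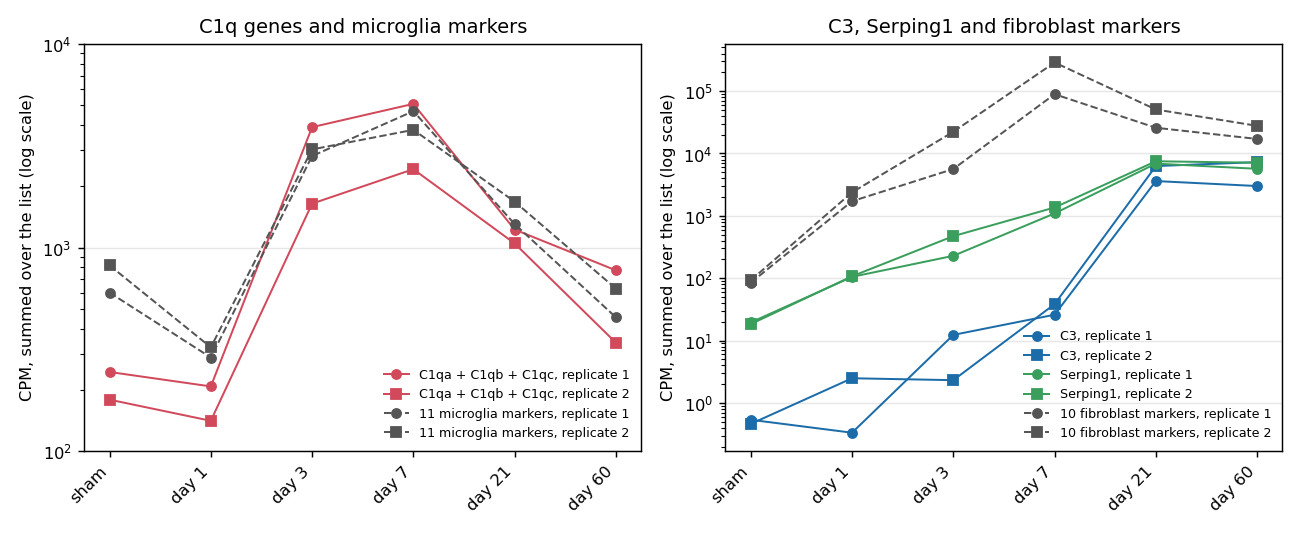
Left, summed CPM of C1qa, C1qb and C1qc (red) and of 11 microglia markers (grey, dashed); right, CPM of C3 (blue) and Serping1 (green) and the summed CPM of 10 fibroblast markers (grey, dashed), all on log axes for replicate 1 (circles) and replicate 2 (squares). The C1q genes and the microglia markers are both highest on days 3 and 7, while the fibroblast markers peak on day 7 and C3 and Serping1 on days 21 and 60.

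C1rb encodes a form of C1r, the protease that C1q activates, and C1ra is its near-identical neighbour. C1rb (GRCm38, chr6:124570294-124581171, plus strand) and C1ra (chr6:124512405-124523443) have longest transcripts in GENCODE vM21 that align with 97.9% identity, 46 differing bases and an identical run of 757 bases. In C1rb 60.5% of the 50-base words of the transcripts also occur in another gene, and in C1ra 50.8%. The 90 bases of exon 11 where the pair differs most are shown here, with the 13 differing bases in capitals (chr6:124580693-124580782 and chr6:124522647-124522736).
C1rb: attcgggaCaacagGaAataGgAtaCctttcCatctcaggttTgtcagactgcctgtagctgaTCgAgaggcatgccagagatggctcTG
C1ra: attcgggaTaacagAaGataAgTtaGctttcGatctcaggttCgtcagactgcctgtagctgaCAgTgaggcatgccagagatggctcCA

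C1rb was at 0 and 12.02 CPM in sham, 0 and 34.5 on day 1, 0 and 148 on day 3, 0.336 and 335 on day 7, 0.784 and 5920 on day 21 and 0.115 and 3845 on day 60. Replicate 1 held 0, 0, 0, 5, 14 and 2 counts in these groups, and replicate 2 held 1249 to 661324, so the replicates of each group stood further apart than any 2 times of replicate 1. Where replicate 1 had 0 counts, 3 counts would have been 0.167 to 0.190 CPM. Within replicate 2 the level was 493-fold that of sham on day 21 and 320.0-fold on day 60. In the fit C1rb passed at none of the 5 times (day 21, 8.92 ± 5.41, edgeR adjusted p = 0.230). With the replicate number as a block it passed on day 3 (3.59 ± 0.82, edgeR adjusted p = 0.00575), day 7 (5.31 ± 0.91, 0.000738), day 21 (8.93 ± 1.003, 9.703e-05) and day 60 (7.99 ± 0.98, 0.000171), a model in which replicate 1 carries almost no counts of this gene.

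C1ra was at 1.79 and 14.5 CPM in sham, 7.67 and 47.3 on day 1, 14.9 and 177 on day 3, 36.5 and 377 on day 7, 489 and 7310 on day 21 and 517 and 8078 on day 60. Both replicates were higher at each later time, with replicate 2 above replicate 1 by 6.17 to 15.6 times. C1ra rose on day 21 (8.89 ± 2.42, edgeR adjusted p = 0.0183) and day 60 (9.03 ± 2.43, edgeR adjusted p = 0.0192). Either sham library left out ended both calls, as did day 21 replicate 2 for day 21 (edgeR adjusted p = 0.0801) and day 60 replicate 2 for day 60 (0.0816). C1rb took 0 of 30, 0 of 138 and 0 of 236 counts of the pair in replicate 1 of sham, day 1 and day 3, with upper 95% Wilson bounds of 11.4, 2.71 and 1.60%. In replicate 1 of the later groups its share was 0.0222 to 0.912%, and in replicate 2 it was 32.2 to 47.0% throughout. With the 2 genes summed before the fit, the pair rose on day 21 (8.91 ± 2.86, edgeR adjusted p = 0.0363) and day 60 (8.77 ± 2.85, edgeR adjusted p = 0.0397).

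C4a and C4b encode the mouse forms of complement C4, which C1s cleaves in the classical pathway, with C4b the haemolytically active form and C4a the sex-limited protein. C4b lies at chr17:34728380-34743882 and C4a at chr17:34809092-34823464 (GRCm38, minus strand, 41 exons in the longest transcript of each), and GENCODE vM21 types C4a as a processed transcript. Their longest transcripts align with 95.9% identity over 5378 columns, with 207 differing bases and an identical run of 433 bases. In each of them 35.2% of 50-base words also occur in another gene. The stretch of exon 21 with the most differences is given here with its 14 differing bases in capitals (chr17:34816086-34816175 and chr17:34735430-34735519), because reads can only be assigned to 1 of the genes where such bases occur.
C4a: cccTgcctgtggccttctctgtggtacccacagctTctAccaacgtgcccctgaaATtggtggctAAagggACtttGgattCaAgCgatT
C4b: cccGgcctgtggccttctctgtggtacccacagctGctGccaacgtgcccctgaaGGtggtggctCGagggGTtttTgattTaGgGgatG

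C4b was at 1.31 and 18.7 CPM in sham, 10.3 and 339 on day 1, 34.9 and 638 on day 3, 201 and 2517 on day 7, 1166 and 27203 on day 21 and 884 and 31807 on day 60. Replicate 2 was 12.5 to 35.96 times replicate 1, so neighbouring groups overlapped, yet within each replicate every time lay far above sham. Within replicate 1 the level was 7.83-fold that of sham on day 1, 26.5-fold on day 3, 153-fold on day 7, 888-fold on day 21 and 673-fold on day 60. Within replicate 2 the same ratios were 18.1, 34.1, 134, 1452 and 1698. C4b rose on day 21 (10.46 ± 3.15, edgeR adjusted p = 0.0282) and day 60 (10.66 ± 3.18, edgeR adjusted p = 0.0289). On days 1, 3 and 7 the fitted changes were 4.12 ± 2.39, 5.06 ± 2.50 and 7.07 ± 2.75 and did not pass (edgeR adjusted p = 0.214, 0.147 and 0.0606).

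The day 21 and day 60 calls of C4b ended without sham replicate 1 (edgeR adjusted p = 0.139 and 0.139), without sham replicate 2 (0.0761 and 0.0787) and without replicate 2 of the time itself (0.107 and 0.119). They also ended with C4a and C4b summed, for which the pair stood at 7.80 ± 3.50 on day 21 (edgeR adjusted p = 0.112) and 8.15 ± 3.55 on day 60 (edgeR adjusted p = 0.106). With the replicate number as a block C4b passed at all 5 times, by 3.66 ± 0.47 on day 1 (edgeR adjusted p = 0.000399), 4.96 ± 0.49 on day 3 (6.796e-05), 7.26 ± 0.54 on day 7 (6.826e-06), 10.19 ± 0.60 on day 21 (3.288e-06) and 10.15 ± 0.60 on day 60 (3.800e-06).

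C4a was at 0.0597 and 215 CPM in sham, 0.834 and 414 on day 1, 1.14 and 564 on day 3, 0.0672 and 3631 on day 7, 0.0560 and 24165 on day 21 and 0.344 and 34010.5 on day 60. Replicate 1 held 1, 15, 18, 1, 1 and 6 counts in these groups, so it showed no late increase, while replicate 2 was 112-fold its sham level on day 21 and 158-fold on day 60. C4a passed at none of the 5 times in the fit, with changes between 0.95 ± 4.34 on day 1 (edgeR adjusted p = 0.895) and 7.30 ± 5.66 on day 60 (edgeR adjusted p = 0.352). With the replicate block it passed on day 21 (5.99 ± 2.20, edgeR adjusted p = 0.0468) and day 60 (6.50 ± 2.23, edgeR adjusted p = 0.0372), although replicate 1 held 1 count in both sham and day 21. The share of C4a in the counts of C4a and C4b together was 4.35% in sham replicate 1 (1 of 23 counts, 95% Wilson interval 0.772 to 20.99%) and 92.0% in sham replicate 2. After stroke it was 0.00480 to 7.50% in replicate 1 and 46.9 to 59.1% in replicate 2.

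**Figure D4:**
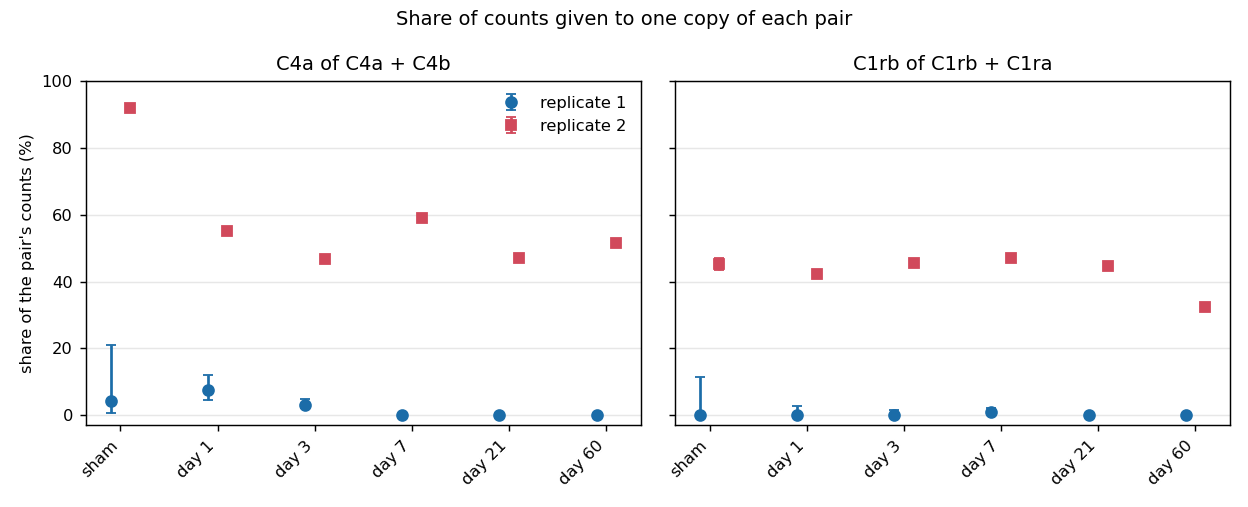
Share of the counts of C4a and C4b that was given to C4a (left) and share of the counts of C1rb and C1ra that was given to C1rb (right), in percent with 95% Wilson intervals, for replicate 1 (circles) and replicate 2 (squares) of each group. Replicate 1 stays at or below 7.50% in both pairs and replicate 2 at or above 32.2%.

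The split between replicates was compared over genes. In 79 of 15774 genes replicate 2 exceeded replicate 1 by over 10 times in all 6 groups, after 0.2 CPM was added to each value, and in 1 gene the reverse held, a threshold chosen after the values were seen. C4a and C1rb were among the 79, and the smallest ratio of C4b on this scale, 9.50, was just outside. Of the 79 genes 76 had a GENCODE transcript, and the median of their 50-base words shared with another gene was 43.0%, with 28 of the 76 (36.8%) sharing at least 50% of them. Over all 15110 genes with a transcript the median was 0 and 2.26% reached that share. Shared words did not always go with a split, since C2 (58.0% shared), Cfb (81.4%) and Itgam (72.4%) had smallest ratios of 0.438, 0.333 and 0.619. The words were compared with the transcripts of every other gene, including any that overlap at the same place. A shared word therefore need not come from a near-identical copy, and the kinds of sharing were not separated. C3, C6, Serping1 and the 3 C1q genes had 0% shared words. The values of C4a, C4b, C1ra and C1rb are therefore uncertain as to which copy the counts belong to. The sum of each pair differed between replicates too, so its level is also uncertain. C4a and C4b together stood at 1.37 and 234 CPM in sham and at 1166 and 51369 on day 21. For C1ra and C1rb together these values were 1.79 and 26.5 in sham and 489 and 13231 on day 21. A cause for the difference between replicates was not tested.

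**Figure D5:**
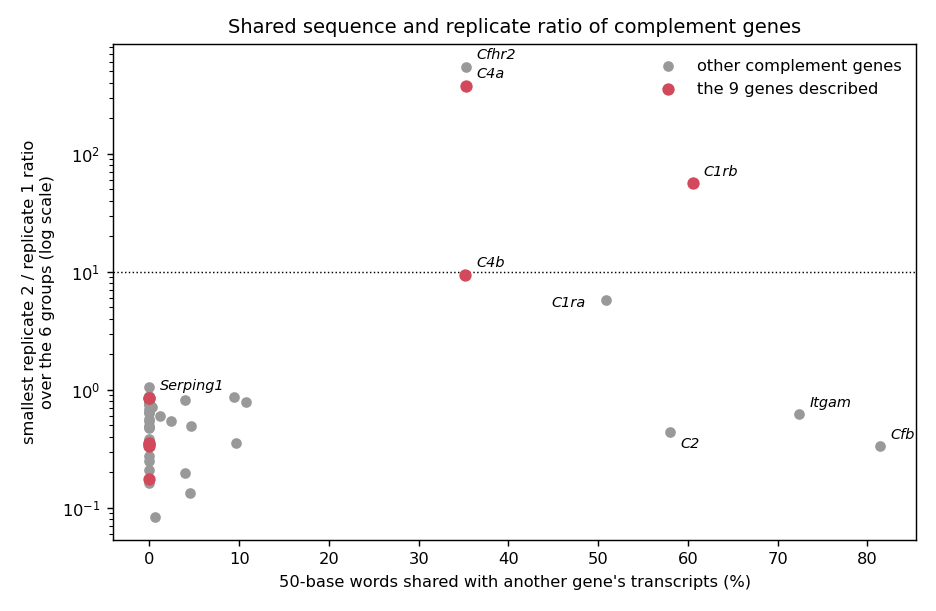
Percent of the 50-base words in the transcripts of complement genes that occur in another gene, against the smallest ratio of replicate 2 to replicate 1 over the 6 groups (0.2 CPM added to each value, log axis, dotted line at 10). C4a, C1rb and Cfhr2 lie above the line and C4b and C1ra below it, while C2, Cfb and Itgam share 58.0 to 81.4% of their words and lie below 1.

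C3, the central component on which all complement pathways converge, had the largest fitted change against sham of the 8 genes with counts in a sham library. It lies at chr17:57203970-57228136 (GRCm38, minus strand, 41 exons in its longest transcript) and overlaps the microRNA gene Mir6978 on the same strand. Its 250 upstream bases (RefSeq, GRCm38.p6, chr17:57228137-57228386, minus strand) are shown because C3 had under 1 CPM in sham and at least 3005 CPM on days 21 and 60, and the capitals mark the 1 match found among the 5 motifs, to the C/EBP motif TTGCNNAA, 45 to 38 bases before the start.
C3 upstream: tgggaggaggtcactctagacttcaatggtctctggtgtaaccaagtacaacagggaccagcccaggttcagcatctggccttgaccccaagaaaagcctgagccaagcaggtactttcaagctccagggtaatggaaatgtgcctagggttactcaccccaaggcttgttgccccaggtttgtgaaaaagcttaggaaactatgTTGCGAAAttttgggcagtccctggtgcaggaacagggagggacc
That motif occurred in 9.58% of all windows of this length, the NF-kB consensus in 7.28%, the STAT motif in 7.04% and the ISRE consensus in 2.98%.

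C3 was at 0.538 and 0.462 CPM in sham, 0.334 and 2.49 on day 1, 12.3 and 2.32 on day 3, 26.0 and 38.4 on day 7, 3611 and 6280.0 on day 21 and 3005 and 7265 on day 60. The sham values rest on 9 and 48 counts. Day 7 lay above all earlier libraries and below all later ones, days 21 and 60 overlapped, and the replicates of days 1 and 3 stood apart in opposite directions. C3 rose by 3.87 ± 1.03 on day 3 (edgeR adjusted p = 0.0170), 6.02 ± 1.12 on day 7 (edgeR adjusted p = 0.00194), 13.28 ± 1.47 on day 21 (edgeR adjusted p = 0.000219) and 13.34 ± 1.47 on day 60 (edgeR adjusted p = 0.000225). The day 21 level was 6718-fold that of sham within replicate 1 and 13600.2-fold within replicate 2. On day 1 the difference was 1.56 ± 0.95 (edgeR adjusted p = 0.236). The day 3 call ended without sham replicate 1 (edgeR adjusted p = 0.0854), sham replicate 2 (0.104) or day 3 replicate 1 (0.129).

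C3 rose from day 7 to day 21 by 7.26 ± 1.17 (edgeR adjusted p = 0.0363), and this step is part of 2 calls among the 9 genes, where 0.441% of all genes passed. It no longer passed when any of 7 libraries was left out, namely either library of sham, day 7 or day 21 or day 60 replicate 1, with an edgeR adjusted p of up to 0.291, while the log2 change stayed between 6.81 and 7.58. Between days 21 and 60 C3 differed by 0.05 ± 0.89 (edgeR adjusted p = 1).

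C6 encodes a component of the membrane attack complex, the pore formed at the end of the cascade, and lies at chr15:4727175-4814967 (GRCm38, plus strand, 16 exons in its longest transcript). It had 0 counts in both sham libraries, where 3 counts would have been 0.179 and 0.0289 CPM. After stroke it was at 0 and 0.548 CPM on day 1, 3.35 and 4.95 on day 3, 14.4 and 19.01 on day 7, 109 and 116 on day 21 and 147 and 228 on day 60. From day 3 on both libraries of each group lay above both of the group before. Against a floor of 3 counts per sham library C6 was at least 2.63-fold higher on day 1, 39.9-fold on day 3, 161-fold on day 7, 1085-fold on day 21 and 1800.4-fold on day 60.

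C6 was called higher on day 3 (edgeR adjusted p = 0.00118), day 7 (0.000258), day 21 (0.000175) and day 60 (0.000147), and these calls held in each of the 18 alternatives. The day 1 call (edgeR adjusted p = 0.0122) rested on the 59 counts of day 1 replicate 2, ended without that library (edgeR adjusted p = 1) and ended without sham replicate 2 (0.142). C6 rose from day 1 to day 3 by 3.60 ± 0.81 (edgeR adjusted p = 0.0472), and 10 of the 12 single libraries left out ended this call (edgeR adjusted p of up to 0.148), the exceptions being the 2 day 1 libraries. With the replicate block C6 also rose from day 3 to day 7 (2.03 ± 0.49, edgeR adjusted p = 0.0228) and from day 7 to day 21 (2.79 ± 0.50, edgeR adjusted p = 0.0200).

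Serping1 encodes C1 inhibitor, which blocks C1r and C1s and other plasma proteases, and lies at chr2:84765387-84775444 (GRCm38, minus strand, 8 exons in its longest transcript). It was at 19.5 and 18.4 CPM in sham, 105 and 107 on day 1, 229 and 473 on day 3, 1093 and 1361 on day 7, 6869 and 7500.2 on day 21 and 5677 and 7100.1 on day 60. The replicates differed by at most 2.07 times, and no group up to day 7 overlapped another. Serping1 rose by 2.49 ± 0.43 on day 1 (edgeR adjusted p = 0.00364), 4.21 ± 0.47 on day 3 (edgeR adjusted p = 0.000345), 6.02 ± 0.51 on day 7 (edgeR adjusted p = 4.595e-05), 8.57 ± 0.57 on day 21 (edgeR adjusted p = 4.264e-05) and 8.40 ± 0.57 on day 60 (edgeR adjusted p = 3.982e-05). None of the 18 alternatives ended any of these 5 calls.

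Serping1 rose from day 3 to day 7 by 1.81 ± 0.42 (edgeR adjusted p = 0.0359) and from day 7 to day 21 by 2.55 ± 0.44 (edgeR adjusted p = 0.0442). The first step no longer passed with libraries scaled by their totals alone (edgeR adjusted p = 0.0545) or without any 1 of 8 libraries, which were both of sham, day 7 and day 21, day 3 replicate 1 and day 60 replicate 1 (up to 0.187). The second no longer passed without either library of sham, day 7, day 21 or day 60 (up to 0.291). From day 1 to day 3 the change was 1.72 ± 0.42 (edgeR adjusted p = 0.0565) and passed with the replicate block (1.67 ± 0.33, edgeR adjusted p = 0.0126). Between days 21 and 60 it was -0.17 ± 0.41 (edgeR adjusted p = 0.993).

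The fibroblast markers rose up to day 7, as Serping1 did, and unlike Serping1 stood lower on days 21 and 60. They took 0.200 to 0.264% of counts on day 1, 0.684 to 2.38% on day 3, 8.09 to 19.8% on day 7, 2.92 to 4.63% on day 21 and 1.88 to 2.50% on day 60, and 8 of 10 were called higher on day 1 and 9 of 10 at each later time. Of all genes 16.7, 18, 23.2, 17.8 and 16.8% were called higher at the 5 times. None of the 10 markers was at 0 in any library. C3 and Serping1 were thus highest when this list stood below its day 7 level. On day 1 C3 had not risen with the list in both replicates. It was at 0.334 and 2.49 CPM against 0.538 and 0.462 in sham (edgeR adjusted p = 0.236). The part of fibroblasts and of other cells in these results was not tested.

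Over the steps between neighbouring times, 4 of the 9 genes passed from day 1 to day 3 (the 3 C1q genes and C6), where 3.57% of all genes did and 3.09% did so as higher. From day 3 to day 7 it was 1 of 9 (Serping1), where 6.29% did (3.06% as higher and 3.22% as lower), and from day 7 to day 21 it was 2 of 9 (C3 and Serping1), where 0.441% did (0.243% as higher and 0.198% as lower). With the replicate block 3 of 9 passed from day 3 to day 7 and 8 of 9 from day 7 to day 21, of which the C1q genes were lower (C1qa -1.53 ± 0.34, edgeR adjusted p = 0.0357; C1qb -1.49 ± 0.33, 0.0368; C1qc -1.80 ± 0.31, 0.0150). Without the block these differences were -1.63 ± 0.57, -1.60 ± 0.59 and -1.92 ± 0.55 and did not pass (edgeR adjusted p = 0.233, 0.258 and 0.159). The block also gave steps of C4b from day 3 to day 7 (2.2997 ± 0.42, edgeR adjusted p = 0.00626) and from day 7 to day 21 (2.94 ± 0.43, 0.00896), and of C1rb from day 7 to day 21 (3.62 ± 0.81, 0.0372). From day 21 to day 60 none of the 9 genes and 0% of all genes passed, 1 of the 9 had an unadjusted p under 0.05 in edgeR, and DESeq2 called 0 of the 9.

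Levels per kilobase of the longest transcript allow the genes to be set side by side. In sham C1qb (79.8 ± 17.5 CPM per kb, SD), C1qc (67.7 ± 17.5) and C1qa (42.1 ± 6.13) were the highest of the 9 apart from C4a, which was at 0.0111 and 40.0, and Serping1 followed at 10.7 ± 0.451. C3 was at 0.0973 ± 0.0104 CPM per kb in sham. On day 7 C1qb (1353 ± 639), C1qc (1190.2 ± 611) and C1qa (817 ± 428) had means above that of Serping1 (694 ± 107). In replicate 2, however, C1qc (758) lay just under Serping1 (770) and C1qa (515) further under it. C3 was at 6.27 ± 1.71. On day 21 Serping1 was at 4064 ± 252 CPM per kb, C3 at 963 ± 367, C1qb at 446 ± 42.4 and C6 at 39.2 ± 1.77, so that each of these 4 lay above the next in both libraries. The order on day 60 was the same, with Serping1 at 3614 ± 569, C3 at 999.8 ± 586, C1qb at 249 ± 141 and C6 at 65.1 ± 20.04. C4b spanned 217 to 5057 CPM per kb between the day 21 libraries and 164 to 5913 between those of day 60, and therefore has no place in this order.

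The wider complement list held 63 genes, of which 49 are in the table and 47 passed the filter on low counts. Of these 47, 13 were called higher and 2 lower on day 1, 19 and 3 on day 3, 18 and 3 on day 7, 21 and 1 on day 21, and 18 and 3 on day 60, beside the shares of all genes given above. The median log2 fold change of the 47 was 1.19, 2.72, 3.02, 2.48 and 2.40 at the 5 times, and 0.95, 2.55, 2.91, 2.22 and 2.10 with genes at 0 in sham set to their bound. Without the 9 genes described, 38 remained, of which 13, 16, 15, 15 and 17 were called at the 5 times. These are 34.2, 42.1, 39.5, 39.5 and 44.7%, where 30.5, 32.2, 43, 33.2 and 31.5% of all genes were called, so the share was near that of all genes on day 1 and below it on day 7. The lists were drawn up with earlier results of these data known.

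Among the initiators of the classical and lectin pathways outside the 9 genes, 7 were tested, and 1, 3, 2, 4 and 4 rose at the 5 times while none fell. The shares called higher were 14.3, 42.9, 28.6, 57.1 and 57.1%, near those of all genes on days 1 and 7 (16.7 and 23.2%). Colec12, a scavenger receptor with a collectin domain, rose at all 5 times, from 6.18 ± 0.971 CPM (SD) in sham to 889 ± 54.9 on day 7 and 853 ± 183 on day 60 (day 60, 7.11 ± 0.52, edgeR adjusted p = 4.278e-05). C2, the protease partner of C4, did not differ detectably on day 1 (0.03 ± 0.56, edgeR adjusted p = 0.975) and rose from day 3 on, reaching 441 ± 105 CPM on day 21 against 3.83 ± 2.02 in sham (6.86 ± 0.71, edgeR adjusted p = 0.000157). Masp1, a protease of the lectin pathway, rose on day 3 (2.72 ± 0.78, edgeR adjusted p = 0.0243), day 21 (4.34 ± 0.84, 0.00380) and day 60 (4.15 ± 0.83, 0.00522). The day 3 calls of C2 and Masp1 ended without day 3 replicate 2 (edgeR adjusted p = 0.0605 and 0.314) or sham replicate 2 (0.0726 and 0.0989), and that of Masp1 also without sham replicate 1 (0.124).

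Both tested partners of C3 in the alternative pathway rose. Cfp, or properdin, which stabilises the C3 convertase, rose at all 5 times, with 0.635 ± 0.0538 CPM in sham, 56.0 ± 0.754 on day 3 and 27.6 ± 7.24 on day 60 (day 3, 6.44 ± 0.44, edgeR adjusted p = 9.042e-05). Cfb, the protease of that convertase, rose from day 3 on, from 4.31 ± 0.319 CPM in sham to 256 ± 113 on day 60 (5.89 ± 0.72, edgeR adjusted p = 0.000371). Its day 3 call ended without sham replicate 1, sham replicate 2 or day 3 replicate 1 (edgeR adjusted p = 0.0757, 0.0904 and 0.113). C2 and Cfb are uncertain in so far as they share the 50-base words given above.

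Of the terminal pathway, C6 was the gene called higher, and of the 3 others tested none rose at any time and 1 fell. That gene, C7, named after its values were seen, had 3 and 30 counts in sham and 0 in both libraries of day 60 (edgeR adjusted p = 0.0362), and 8 single libraries left out each ended its call (up to 0.205). The most abundant of these 3, C8g, was at 4.01 ± 2.88 CPM in sham and 8.84 ± 0.598 on day 60 (1.13 ± 0.64, edgeR adjusted p = 0.207). The receptors, 10 genes of which 6, 5, 5, 4 and 4 rose at the 5 times and none fell, were called higher in 60, 50, 50, 40 and 40%, where 16.7, 18, 23.2, 17.8 and 16.8% of all genes were. C3ar1, the receptor for C3a, was at 2.20 ± 0.154 CPM in sham, 135 ± 95.8 on day 7 and 15.6 ± 0.116 on day 60 and rose at all 5 times (day 7, 5.93 ± 0.72, edgeR adjusted p = 0.000223). C5ar1, the receptor for C5a, was highest on day 3 with 129 ± 8.36 CPM against 2.24 ± 1.05 in sham (5.81 ± 0.50, edgeR adjusted p = 0.000136). Itgb2, the shared chain of complement receptors 3 and 4 and the receptor gene with the highest mean on day 7, rose to 246 ± 39.3 CPM on day 7 from 6.80 ± 2.86 (5.17 ± 0.49, edgeR adjusted p = 7.261e-05), and Itgax, the other chain of complement receptor 4, to 67.2 ± 17.0 from 0.179 ± 0.253 (9.46 ± 1.67, edgeR adjusted p = 0.00145). The sham level of Itgax ranged from 0 to 0.358 CPM, so the size of its change is uncertain. Its day 7 log2 change lay between 7.54 and 15.19 over the 18 alternatives. Of the other calls, Itgam rose on days 3 and 7 and Cd93 and C1qbp on day 1, genes named after their values were seen. Each of these calls ended without sham replicate 1, with log2 changes of 1.85 and 2.58 for Itgam, 3.98 for Cd93 and 1.37 for C1qbp. Of the 18 alternatives, 10 ended the day 3 call of Itgam and 1 its day 7 call, 4 that of Cd93 and 6 that of C1qbp. Itgam also shares 72.4% of its 50-base words with another gene. C3ar1, C5ar1, Itgb2 and Itgax are expressed by myeloid cells, whose marker lists are given above. The day 1 calls of C3ar1, Itgb2 and Itgax each ended when single libraries of sham or day 1, or day 21 replicate 1 for Itgb2, were left out (edgeR adjusted p of up to 0.117, 0.171 and 0.188), and the day 60 call of C3ar1 ended without either sham library (0.0579 and 0.0523).

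Of 16 regulators tested besides Serping1, 3, 3, 3, 4 and 4 rose and 2, 3, 3, 1 and 2 fell at the 5 times. The 31.3, 37.5, 37.5, 31.3 and 37.5% called are near the shares of all genes (30.5, 32.2, 43, 33.2 and 31.5%), so the counts show nothing particular to the regulators. Cfi, the protease that inactivates C3b and C4b, had 0 counts in both sham libraries and was at least 4.60-fold higher on day 1, 39.9-fold on day 3, 123-fold on day 7, 81.9-fold on day 21 and 103-fold on day 60, called at all 5 times (edgeR adjusted p = 0.00385, 0.000557, 0.000147, 0.000279 and 0.000264). Susd4, an inhibitor of C3 convertase formation, fell at all 5 times, from 175 ± 15.7 CPM in sham to 7.94 ± 0.556 on day 7 (-4.46 ± 0.99, edgeR adjusted p = 0.00476) and 25.4 ± 0.165 on day 60 (-2.78 ± 0.91, edgeR adjusted p = 0.0411). The calls of Susd4 on days 1, 3, 21 and 60 each ended without at least 1 library, in 2, 2, 4 and 8 alternatives. Neuron markers, 9 of 10 on day 1 and 10 of 10 at each later time, were also called lower. Of all genes 13.9, 14.2, 19.8, 15.4 and 14.8% were called lower at the 5 times. The neuron markers went from 0.841 to 0.986% of counts in sham to 0.0141 to 0.0267% on day 7, and their part in the result for Susd4 was not tested.

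Cr1l, a regulator of C3 and C4 fragments, and Vtn, which binds the terminal complex and is also among the pericyte markers, were named after their values were seen and rose at all 5 times in each alternative. Cr1l stood at 18.3 ± 1.87 CPM in sham and 78.7 ± 5.09 on day 60, and Vtn at 89.7 ± 1.73 and 472 ± 15.8. The pericyte list took 0.0581 to 0.0686% of counts in sham and 0.121 to 0.128% on day 60. Likewise named afterwards, Csmd2 fell on day 7 (-4.85 ± 1.22, edgeR adjusted p = 0.00932; 0.0978 without day 7 replicate 2), and Cpn1 fell on days 3 and 60 from 0.375 to 0.478 CPM in sham to 0 counts, calls that 8 single libraries each ended.

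Clu, which keeps the membrane attack complex from inserting, fell on day 7 to 259 ± 17.0 CPM from 1916 ± 121 in sham (-2.89 ± 0.63, edgeR adjusted p = 0.00464) and was at 2664 ± 94.4 on day 60 (0.48 ± 0.59, edgeR adjusted p = 0.573). Of the 10 astrocyte markers 7 were called lower and 2 higher on day 7, where 19.8 and 23.2% of all genes were. That list took 0.661 to 0.832% of counts in sham, 0.0961 to 0.180% on day 7 and 0.252 to 0.334% on day 60. The part of astrocytes in the result for Clu was not tested. Csmd1, a membrane inhibitor of the classical pathway, was lower on day 1 (-2.13 ± 0.57, edgeR adjusted p = 0.0184) and day 3 (-2.21 ± 0.56, 0.0147) and higher on day 21 (1.98 ± 0.55, 0.0195) and day 60 (2.82 ± 0.56, 0.00512). All but the last of these Csmd1 calls ended without single sham, day 1, day 3 or day 21 libraries (edgeR adjusted p of up to 0.119).

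Outside the complement lists, the genes whose course over the 12 libraries came closest to each of the 9 were ranked by the mean absolute difference of log2 CPM after each gene was centred on its own mean, among 13297 genes with at least 1 CPM on average. For the C1q genes these differences were small. C1qa was nearest to Laptm5 (0.35), Sash3 (0.36) and Tlr7 (0.36), C1qb to Sash3 (0.30), Fyb (0.32) and Tnfaip8l2 (0.33), and C1qc to Tnfaip8l2 (0.29), Sash3 (0.29) and Tlr7 (0.33). Serping1 was nearest to Fbln1 (0.60), Htra4 (0.60) and Fam26f (0.61). C6 was nearest to Slc36a2 (0.50), followed by Kng1 (0.98) and Dpep1 (1.04), and C3 had no neighbour closer than Saa4 (1.30), Cxcl13 (1.44) and Slc36a2 (1.58). C4b was nearest to Fndc1 (1.35), Mnda (1.36) and Speer4e (1.54). The nearest genes of C4a were H2-Q1, H2-Bl and Srp54a (1.86, 1.86 and 1.98) and those of C1rb were Trim34b, H2-Q1 and Ugt1a6b (1.75, 1.75 and 1.77), which share with them the separation of the replicates. These values are a description over shared libraries and were not tested.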

How the data were processed

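RNA-seq counts of 12 mouse libraries were used. The deposited values are unnormalized counts for 15774 gene symbols, checked as whole numbers, in 1 file per library and 1 table of the series that were identical in 189288 of 189288 values. The submitters' processing notes list mm10, HTSeq 0.6.1 and Bowtie2 2.3.4.2. The annotation, the strand setting and what was done with multi-mapped reads are not given in the sources used here, and these decide how near-identical genes are counted.

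The analysis of these counts used edgeR 4.0.16 under R 4.3.3. The filterByExpr filter (minimum count 10) left 15635 genes. All 12 libraries entered 1 quasi-likelihood fit with TMM scaling and a coefficient per group (6 residual and 4.15 prior degrees of freedom, median biological coefficient of variation 0.408). Comparisons were of each time against sham and of neighbouring times, and p-values were adjusted by Benjamini-Hochberg over all genes within a comparison. The alternatives were DESeq2 1.42.0 size factors, library totals, no filter, the DESeq2 test, a replicate block, near-identical copies summed, and each library left out. Where a group is left with 1 library, it is assumed to vary like the others. The replicate numbers were taken to pair the libraries, because the difference between replicate 2 and replicate 1 correlated across genes at 0.319 to 0.713 in 15 of 15 pairs of groups.

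The 9 genes, the complement lists and the marker lists were chosen with earlier results of these data known. All 9 genes are named. Other complement genes are named where called against sham with at least 10 CPM in a group mean, up to 4 per role by size of change, plus the most abundant of each role. A gene that this rule names is not reported here. For each of the 9 genes the 3 closest genes by log2 CPM (prior count 2) outside the lists are named. In simulated day 21 and sham counts of 15477 genes, the fit recovered 28 of 100 changes of 4-fold and 91 of 100 of 8-fold, with 6 false calls among 15277 unchanged genes. The simulation used the same spread for every gene, no difference between replicates, and changes only in genes above a minimum expected count. These rates therefore do not carry over to genes that are low or differ by replicate. Intervals and floors (3 counts per library) cover counting error only. Transcripts were taken from GENCODE vM21 (GRCm38) and promoters from RefSeq GRCm38.p6, which matched 5 of the 9 genes. C1qa, C4a, C4b and Serping1 were not among them.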

Additional observations from a re-analysis of the deposited data

Results flagged for a closer look

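Each result here is a step between neighbouring times that passed the edgeR quasi-likelihood test, so that the difference between the effects of the 2 times against sham was itself tested. C1qa rose from day 1 to day 3 by a log2 fold change of 4.13 ± 0.63 (edgeR adjusted p = 0.00649), C1qb by 3.95 ± 0.64 (0.00930), C1qc by 3.96 ± 0.60 (0.00649) and C6 by 3.60 ± 0.81 (0.0472), with both day 3 libraries above both day 1 libraries in each of these genes. Serping1 rose from day 3 to day 7 by 1.81 ± 0.42 (edgeR adjusted p = 0.0359) and from day 7 to day 21 by 2.55 ± 0.44 (0.0442), and C3 rose from day 7 to day 21 by 7.26 ± 1.17 (0.0363), again with no overlap between the libraries of the 2 times. For C1qc no alternative ended the call, and for the others single libraries did, as given with each gene.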

How the results depend on the processing

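Over 1458 values of the 9 genes (81 changes under 18 alternatives), 1319 kept their direction and side of the threshold, 58 no longer passed, 40 newly passed and 41 turned their sign. DESeq2 size factors shifted the median change of all genes against sham by -0.15 to -0.10 and library totals by -0.27 to 0.24 (log2). With library totals 0 of 9 genes passed between days 3 and 7, against 1, and C1qb turned to 0.12 at day 1 and to -0.24 between days 3 and 7. The DESeq2 test called 2 genes between days 3 and 7 and 4, against 2, between days 7 and 21. With the replicate block 9 genes passed at day 60, against 4, 3 between days 3 and 7 and 8 between days 7 and 21, and C4b turned to -0.040 between days 21 and 60. The block also moved the count over all genes from 4774 to 6754 at day 1, 558 to 1313 between days 1 and 3, 983 to 2853 between days 3 and 7 and 69 to 635 between days 7 and 21. It ended no call of the 9 genes.

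Leaving out 1 library at a time gave 1 to 2 genes called at day 1, 3 to 7 at day 21, 2 to 4 between days 1 and 3, 0 to 2 between days 3 and 7 and 0 to 3 between days 7 and 21, and 9 to 16 genes of the complement list at day 1. The lowest counts at days 1 and 21 came without sham replicate 2, and 4 genes passed at day 21 without sham replicate 1. The changes that turned under single omissions had these log2 ranges against sham: C4a -7.14 to 11.71 at day 1, -6.63 to 12.16 at day 3, -10.60 to 14.84 at day 7, -10.86 to 17.57 at day 21 and -8.28 to 18.07 at day 60, C1rb -11.61 to 13.05, -11.61 to 15.15, -4.18 to 16.33, -2.96 to 20.47 and -5.71 to 19.85 at the same times, and at day 1 C4b -0.11 to 7.05, C3 -0.70 to 2.28 and C1qb -0.52 to 0.13. Between neighbouring times they were C4a -7.54 to 8.49, -11.99 to 10.64, -14.93 to 17.41 and -15.09 to 18.16, C1rb -13.07 to 15.17, -7.77 to 16.32, -7.73 to 13.10 and -14.63 to 11.25, and C4b -2.35 to 5.12, -0.75 to 5.28, -0.22 to 6.14 and -4.003 to 3.81. Between days 3 and 7 C1qa ranged from -0.11 to 1.32, C1qb from -0.33 to 1.05 and C1qc from -0.073 to 1.13, and between days 21 and 60 C3 from -0.72 to 0.54. The cause of these changes was not tested.

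The other complement genes named gave 76 calls against sham, and the same alternatives, added after the data were seen, ended 24 of them at least once and turned none. Groups of 2 libraries limit all of these tests, and the depth of replicate 1, where 3 counts are 0.167 to 0.202 CPM, limits genes that are low there.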
